A study of Caenorhabditis elegans with 6 samples.

Results

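Oogenic piRNA loci are the *C. elegans* piRNA genes to which the deposited tables give the class oogenic, that is, piRNAs assigned to the female germ line. Members were the piRNA rows whose class entry holds oogenic and not spermatogenic, which gave 1724 of the 13994 piRNA loci listed in any of the 6 libraries. A further 3750 loci were spermatogenic, 8513 had no class and 7 had another entry. The tables list a locus in a library only when it had reads, so a missing row was taken as 0, and loci with no read in any library are outside these counts.

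The study cloned small RNAs from whole animals, about 50000 synchronized adults per sample grown at 20 °C, to ask how loss of *eggd-1* affects germline small RNAs. EGGD-1, also named MIP-1, is a LOTUS domain protein that holds germ granules at the nuclear envelope. There were 2 untreated control libraries, 2 untreated *eggd-1* null libraries, and 1 library per genotype from RNA treated with sodium periodate, which keeps small RNAs without a 3′ methyl group from being cloned. The untreated control, called wild-type here, carries *pgl-1::RFP*, whereas the periodate-treated control is the N2 strain, so strain and treatment cannot be told apart between the controls. The labels give *eggd-1* null as the whole genotype of the mutant and do not say whether it carries the tag. The study's methods call the replicates biological, while the labels give no culture or preparation for them.

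PRG-1, the Piwi Argonaute of the worm, binds piRNAs in P granules and uses them to recognize germline transcripts, where RNA-dependent RNA polymerases then make 22G-RNAs. Each piRNA of the main type is transcribed from its own small gene, trimmed at its 3′ end by PARN-1 and methylated there by HENN-1. Most of these genes lie on chromosome IV, in introns and between genes, and separate sets are made in the male and in the female germ line.

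The libraries held between 19457486 and 31245662 genome-mapped reads. Levels are given in RPM, reads scaled to these totals, so that 3 reads, the limit that a count of 0 allows, were between 0.0960 and 0.154 RPM per library. 22G-RNAs antisense to *eggd-1* itself (listed as *mip-1* in the annotation) were at 78.1 and 81.1 RPM in untreated wild-type and at 0.366 and 0.469 RPM in untreated *eggd-1*. In the periodate-treated libraries they were at 1.07 RPM in wild-type against 0.257 RPM in *eggd-1*. The genotype labels were thus matched in the untreated libraries.

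The oogenic loci were nearly all on chromosome IV. All 1724 had the same coordinates in the WBcel235 annotations of Ensembl and RefSeq, each 21 bases long, and 1723 were on chromosome IV, the exception being 21ur-14449 on chromosome II. They were divided between the strands, with 836 on the plus and 888 on the minus strand. Between genes lay 1127 (65.4%), 537 (31.1%) were in introns and 60 (3.48%) in exons, against 60.1% and 59.1% between genes for spermatogenic and unclassed loci. Inside genes the piRNA was on the strand of the host in 301 cases and on the other strand in 296.

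The 597 loci inside genes were spread over 187 hosts. *jac-1*, which encodes a p120 catenin (IV:15997835-16026847, minus strand), held 23, all intronic and 18 on its own strand. Their summed level was 132 and 144 RPM in wild-type against 136 and 135 RPM in *eggd-1*. *egl-23*, which encodes a potassium channel (IV:13989081-14012074, plus strand), held 19 intronic loci, with 255 and 271 RPM in wild-type against 248 and 293 RPM in *eggd-1*. The genotypes overlapped at both hosts. Of the 6 hosts with the most loci, those without overlap were *Y37A1A.4*, at 153 and 170 RPM in wild-type against 145 and 144 RPM in *eggd-1*, and *Y64G10A.7*, at 264 and 309 RPM in wild-type against 233 and 256 RPM.

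Oogenic loci were packed closely. Of the members, 988 (57.3%) overlapped another listed piRNA locus, against 46.7% of spermatogenic and 36.7% of unclassed loci. A count that was not a whole number, the mark of a read divided between features, was found at 546 members, and each of these 546 overlapped another piRNA locus. 21ur-6041 (IV:16073794-16073814, minus strand) and 21ur-5410 (IV:16073793-16073813, same strand) are offset by a single base and had closely similar values in every library. The values of such neighbours are therefore not independent, and how reads are divided between them is uncertain.

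Individual oogenic loci were more abundant than those of the other classes. A read was present in all 4 untreated libraries for 1538 members (89.2%), against 75.8% of spermatogenic and 59.8% of unclassed loci, and 42 members had no read in any untreated library. Over the 1682 members with a read in an untreated library, the median level was 1.81 and 1.95 RPM in wild-type against 1.98 and 1.71 RPM in *eggd-1*. The corresponding medians were 0.284 and 0.288 RPM in wild-type for spermatogenic loci, and 0.177 and 0.192 RPM for unclassed loci. The oogenic loci made up 12.3% of the loci and about 33% of the piRNA reads of wild-type animals, as given per library further on.

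A small number of members carried most of these reads. Between 76 and 84 loci made up 50% of the oogenic reads of an untreated library, and the 10 most abundant loci made up 15.3% to 16.5%. The mean over the untreated libraries was above 100 RPM for 37 members, above 10 RPM for 393 and under 1 RPM for 729. Of the 100 most abundant piRNA loci of any class, 38 were oogenic.

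The most abundant member was 21ur-739 (IV:14714756-14714776, minus strand, intergenic), at 602 and 689 RPM in wild-type against 528 and 504 RPM in *eggd-1*. Its libraries did not overlap between genotypes, yet the log2 fold change of -0.32 ± 0.20 (SE) had an adjusted p of 0.21 in edgeR's quasi-likelihood test. The next, 21ur-917 (IV:16821915-16821935, minus strand, intergenic), was at 367 and 326 RPM in wild-type against 394 and 576 RPM in *eggd-1* (log2 fold change 0.48 ± 0.20, adjusted p 0.051). With a library left out its adjusted p ran from 0.0023 without *eggd-1* replicate 1 to 0.56 without *eggd-1* replicate 2, and was 0.026 with a replicate block, with a change under 2-fold in each. In the third, 21ur-1367 (IV:16891847-16891867, minus strand, intergenic), 352 and 306 RPM in wild-type stood beside 329 and 395 RPM in *eggd-1*, and the genotypes overlapped.

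The remaining 7 of the 10 were 21ur-3063, 21ur-3545, 21ur-6041, 21ur-1800, 21ur-6066, 21ur-5410 and 21ur-3380, with values from 192 to 330 RPM in the untreated libraries. Their log2 fold changes ran from -0.39 (21ur-3545) to 0.18 (21ur-1800), and none of these 7 passed an adjusted p of 0.05. With TMM scaling, described further on, 21ur-739 and 21ur-3545 did, at log2 fold changes of -0.71 and -0.78 (adjusted p 0.017 and 0.0082). With DESeq2's own size factors these and 21ur-3063, 21ur-6041, 21ur-5410 and 21ur-3380 were lower (adjusted p from 0.00021 to 0.049). 21ur-1800 (IV:13716376-13716396) and 21ur-3380 (IV:15564401-15564421) are annotated within exons of *C47A4.1* and *Y105C5A.1*, on the strand of the gene, and 21ur-6066 (IV:15631615-15631635) is in an intron of *Y105C5A.9*.

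**Figure D1:**
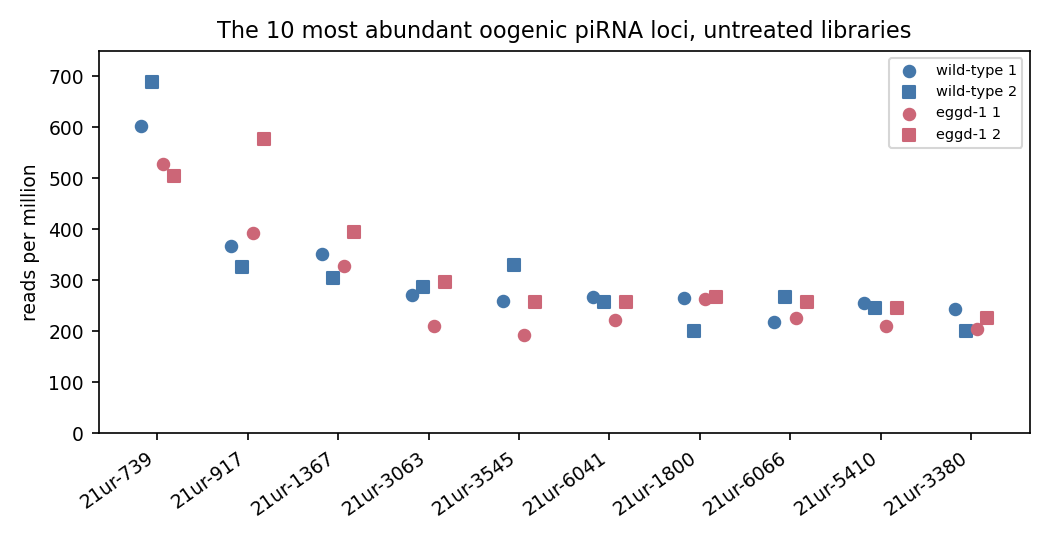
Level in RPM (y axis) of the 10 most abundant oogenic loci (x axis) in each of the 4 untreated libraries, 1 point per library. 21ur-739 was highest in 3 of the 4 libraries, and in *eggd-1* replicate 2 21ur-917 was at 576 RPM, above 21ur-739 at 504 RPM.

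With genome-mapped reads as library size, the summed level of the oogenic loci was close in both genotypes. The sum was 19469 and 20444 RPM in wild-type against 18311 and 19942 RPM in *eggd-1*, so the genotypes overlapped. The ratio of *eggd-1* to wild-type was 0.958 ± 0.067 (SD propagated from 2 libraries each, two-sided exact permutation p 0.67). With 2 libraries per genotype this test cannot give a p below 0.33. The ratio was lower on other scales, at 0.905 relative to miRNA counts and 0.841 relative to piRNA counts (exact permutation p 0.33 each). Spermatogenic loci rose from 6096 and 6192 RPM to 12371 and 12736 RPM (ratio 2.04 ± 0.048), and unclassed loci were at 32712 and 33870 RPM in wild-type against 34759 and 37210 RPM in *eggd-1* (ratio 1.08 ± 0.058), each with an exact permutation p of 0.33. In whole animals, fewer cells that make a piRNA and less of it per cell cannot be told apart.

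As a share of piRNA reads, which needs no library size, oogenic loci were lower in *eggd-1*. They held 33.4% and 33.8% in wild-type against 28.0% and 28.5% in *eggd-1*, a difference of -5.34 percentage points that was larger than the spread within either genotype (exact permutation p 0.33, the lowest possible). The spermatogenic share was 10.5% and 10.2% in wild-type against 18.9% and 18.2% in *eggd-1*. The unclassed share was also lower, at 56.1% and 56.0% in wild-type against 53.1% and 53.2% in *eggd-1*. Shares are parts of a whole, so a larger share of any class leaves less for the others. In the periodate-treated libraries the oogenic share was 34.5% (Wilson 95% interval 34.48 to 34.52%) in wild-type against 28.5% (28.51 to 28.56%) in *eggd-1*; these intervals cover counting error only.

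The response was compared between classes within each library. The log2 ratio of the oogenic to the spermatogenic sum was 1.68 and 1.72 in wild-type against 0.57 and 0.65 in *eggd-1*, a difference of -1.09 ± 0.067 (SD). The log2 ratio of the oogenic to the unclassed sum was -0.75 and -0.73 in the wild-type libraries, against -0.92 and -0.90 in *eggd-1*, a difference of -0.17 ± 0.023. In both ratios the genotypes did not overlap (exact permutation p 0.33 each). The periodate-treated pair, which entered no test, differed by -1.15 and -0.20 in the same ratios.

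**Figure D2:**
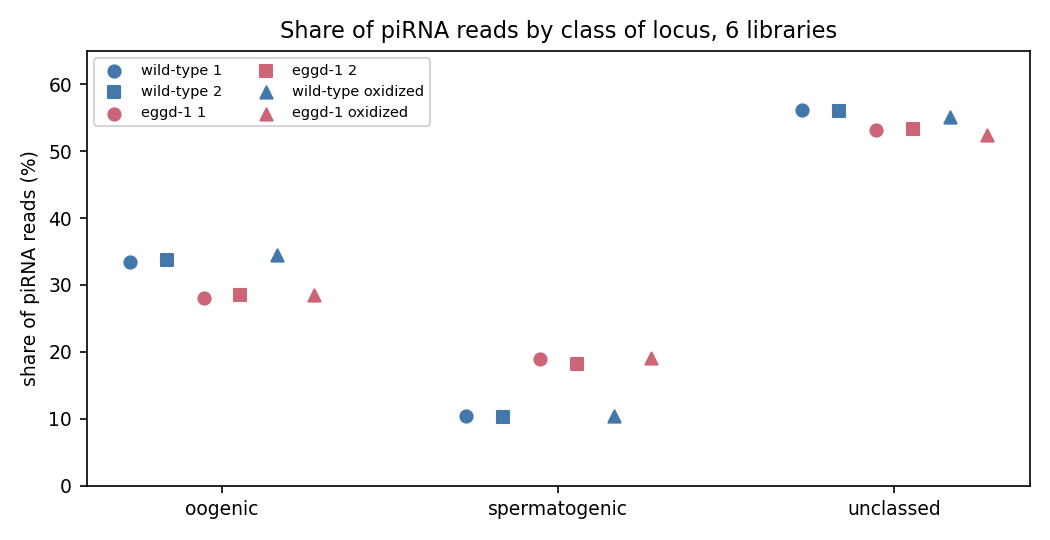
Share of all piRNA reads in percent (y axis) at oogenic, spermatogenic and unclassed loci (x axis), 1 point per library, with circles and squares for untreated replicates 1 and 2 and triangles for the periodate-treated libraries. The oogenic points of the 3 *eggd-1* libraries sit between 28.0 and 28.5%, under the 3 wild-type libraries at 33.4 to 34.5%.

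Single loci were first counted with genome-mapped reads as library size. Of the 1253 members that passed the count filter, 11 (0.878%) were called higher and 10 (0.798%) lower in *eggd-1* (adjusted p below 0.05 and at least 2-fold, edgeR), where 26.9% of all tested piRNA loci were called higher and 0.444% lower. The other 471 members had too few reads to be tested. The median log2 fold change of the tested members was -0.09 (quartiles -0.30 and 0.15), that of spermatogenic loci 1.21, that of unclassed loci 0.21 and that of all tested piRNA loci 0.38.

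These counts depended on how the libraries were scaled. TMM scaling over the piRNA loci sets the change of most loci near 0 and moved the median of all piRNA loci from 0.38 to -0.01. With it, 2 members were called higher and 77 lower (13.3% and 2.89% of all tested loci), and the median of the members was -0.48. DESeq2 with its own size factors called 1 higher and 51 lower (6.62% and 1.67% of all tested loci). Without the fold threshold, 57 members were higher and 64 lower with genome-mapped reads as library size. There were 8 and 466 (37.2%) with TMM scaling, and 2 and 306 (24.4%) with DESeq2's own size factors. Of all tested loci, 15.3% and 9.85% were lower under the last pair of settings. Individual libraries mattered too, since leaving out wild-type replicate 2 gave 24 higher calls, while leaving out *eggd-1* replicate 1 gave 26 lower calls and leaving out wild-type replicate 1 gave 16.

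Libraries of the genotypes did not overlap, with *eggd-1* higher, at 217 tested members (17.3%), against 52.8% of all tested piRNA loci. With *eggd-1* lower they did not overlap at 370 members (29.5%), against 13.0% of all. Replicates of the same genotype differed at a typical tested member by a median absolute log2 ratio of 0.23 in wild-type against 0.23 in *eggd-1*.

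The called members were of low or middling abundance, with mean counts between 10.8 and 93.0 per untreated library. At a mean of at least 50 counts, 3 were higher and 1 lower. 21ur-8348 (IV:5602145-5602165, minus strand), in an intron of the forkhead factor gene *fkh-7* on the opposite strand, was at 1.38 and 2.05 RPM in wild-type against 4.39 and 4.61 RPM in *eggd-1* (log2 fold change 1.38 ± 0.26, adjusted p 2.1e-05). 21ur-5985 (IV:13971956-13971976, minus strand), in an intron of *dnbp-1*, was at 2.56 and 2.14 RPM in wild-type against 5.48 and 4.82 RPM in *eggd-1* (1.13 ± 0.24, adjusted p 0.00015). Both were under 2-fold with TMM scaling, at 1.00 (0.997 before rounding) and 0.74 on the log2 scale.

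The third, 21ur-3837 (IV:5570146-5570166, minus strand, in an intron of *T12E12.6*), was at 1.63 and 1.54 RPM in wild-type against 3.29 and 3.28 RPM in *eggd-1* (1.05 ± 0.27, adjusted p 0.0013), and at 0.66 with TMM scaling. The lower one, 21ur-9425 (IV:15649014-15649034, plus strand, intergenic), was at 3.83 and 3.58 RPM in wild-type against 1.78 and 1.62 RPM in *eggd-1* (log2 fold change -1.12 ± 0.27, adjusted p 0.00053). It was also called with TMM scaling, as were all 10 lower members. That scaling moves the loci downward together (21ur-9425 to -1.51), so it could hardly remove a lower call and is no further check on these. Of the 10 lower members, 8 were also lower in *eggd-1* between the periodate-treated libraries, and of the 11 higher members 9 were also higher there. Of all 1604 members with enough treated reads, called or not, 981 were lower and 623 higher there. These shares differed along the chromosome, as given further on.

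Among members called under both scalings, 21ur-3495 (IV:14604172-14604192, plus strand, intergenic) was at 1.77 and 1.98 RPM in wild-type against 0.777 and 0.469 RPM in *eggd-1* (log2 fold change -1.60 ± 0.35). 21ur-4505 (IV:14324968-14324988, plus strand), in an intron of the F-box gene *fbxa-83*, was at 1.60 and 2.53 RPM in wild-type against 0.640 and 0.810 RPM in *eggd-1* (-1.51 ± 0.34). 21ur-4058 (IV:14625421-14625441, minus strand, intergenic) was at 1.53 and 1.22 RPM in wild-type against 0.640 and 0.384 RPM in *eggd-1* (-1.42 ± 0.38). These 3 had edgeR adjusted p-values of 0.00020, 0.00029 and 0.0022, and the call of 21ur-4058 was lost without *eggd-1* replicate 2 (adjusted p 0.063).

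Higher under both scalings were 21ur-7445 and 21ur-2923, and no other member. 21ur-7445 (IV:6282751-6282771, minus strand, intergenic) was at 0.745 and 0.576 RPM in wild-type against 2.60 and 1.62 RPM in *eggd-1* (1.67 ± 0.34, edgeR adjusted p 6.1e-05). 21ur-2923 (IV:14751839-14751859, plus strand, intergenic) was at 0.390 and 0.416 RPM in wild-type against 2.01 and 0.640 RPM in *eggd-1* (1.69 ± 0.42, adjusted p 0.0010). Its call rested on *eggd-1* replicate 1, without which the log2 fold change was 0.66 and the adjusted p 0.43.

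Members on this chromosome fell into a left group of 143 loci, 142 of them between IV:4835169 and IV:6500198, and a right group of 1580 loci between IV:13604755 and IV:17221009. The division at 10 Mb was chosen after the values had been seen. Of the 11 members called higher 7 were in the left group and 4 in the right group, which also held all 10 called lower. The left group held 8.29% of the oogenic loci, 21.7% of the spermatogenic and 20.6% of the unclassed loci when the chromosome was divided at the same point.

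Oogenic loci of the left group were higher in *eggd-1*. Their sum was 503 and 565 RPM in wild-type against 690 and 750 RPM in *eggd-1* (ratio 1.35 ± 0.14, SD), and the genotypes did not overlap. The right group was at 18967 and 19878 RPM in wild-type against 17622 and 19192 RPM in *eggd-1* (ratio 0.948 ± 0.065), where they did overlap. The exact permutation p was 0.33 for the left group and 0.67 for the right.

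The difference between the groups does not depend on library size. The log2 ratio of the left to the right sum was -5.24 and -5.14 in the wild-type libraries, against -4.68 and -4.68 in *eggd-1*, a difference of 0.51 ± 0.072 (SD, exact permutation p 0.33). Between the periodate-treated libraries, where the wild-type is N2, the left sum was 7915 RPM in wild-type against 9681 RPM in *eggd-1*, the right sum was 289142 and 236959 RPM, and the same log2 ratio differed by 0.58. The tagged gene *pgl-1* of the untreated control is itself on this chromosome (IV:6974441-6977318), to the right of all but 1 locus of the left group. The part of the tag in the difference was not tested, and the labels leave the tag of the mutant unstated.

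Per locus, the median log2 fold change was 0.47 (quartiles 0.34 and 0.76) over the 86 tested members of the left group and -0.12 (quartiles -0.31 and 0.11) over the 1167 of the right group. At an adjusted p below 0.05 and any fold, 32 left members (37.2%) were higher and 0 lower, where 35.9% of all tested piRNA loci were higher and 2.34% lower. In the right group 25 (2.14%) were higher and 64 (5.48%) lower. In the left group edgeR with this library size gave 0 lower members also at an unadjusted p below 0.05, where TMM scaling gave 4, and DESeq2 gave 0 at an adjusted p below 0.05 with either set of size factors.

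The count in the left group moved with the scaling, with the test and with single libraries. It was 6 higher and 0 lower with TMM scaling (21.9% and 15.3% of all tested loci), with a median of 0.09 on the log2 scale. In the right group TMM scaling gave 2 higher and 466 lower (39.9% of its tested members) and a median of -0.50. The left group had 2 higher and 0 lower with DESeq2's own size factors (10.6% and 9.85% of all). With DESeq2 at genome-mapped size factors it had 15 higher and 0 lower. That setting had 2.23% of all tested oogenic, 52.95% of spermatogenic and 11.1% of unclassed loci higher. With genome-mapped reads as library size, the 32 higher became 18 without wild-type replicate 1, and without *eggd-1* replicate 1 or replicate 2 it was 19 each. The difference in the log2 ratio of left to right sums stayed between 0.46 and 0.56 with any library left out, and the left sum was at 1.18 times its wild-type level when taken relative to all piRNA counts.

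The most abundant left loci, named after their values were seen, were 21ur-2935, 21ur-331 and 21ur-8114. 21ur-2935 (IV:5974848-5974868, minus strand, intergenic) was at 93.7 and 110.0 RPM in wild-type against 104 and 129 RPM in *eggd-1*, with overlapping libraries (log2 fold change 0.19 ± 0.19). 21ur-331 (IV:6077772-6077792, minus strand, in an intron of the UDP-glucuronosyltransferase gene *ugt-19*) was at 56.5 and 43.3 RPM in wild-type against 68.6 and 73.0 RPM in *eggd-1* (0.50 ± 0.18, edgeR adjusted p 0.023). 21ur-8114 (IV:5172598-5172618, minus strand, intergenic) was at 19.8 and 24.5 RPM in wild-type against 27.6 and 36.5 RPM in *eggd-1* (0.53 ± 0.18, adjusted p 0.017). Neither of the last pair kept an adjusted p below 0.05 with TMM scaling (0.68 and 0.55).

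The difference was seen in each window and subgroup that held enough loci. This is a description without a test, since the loci overlap and share the same libraries. The 4 tested exonic loci of the left group, too few for the rule used here, had a median log2 fold change of 0.21. In windows of 0.5 Mb with at least 20 tested members, the median log2 fold change was 0.40 to 0.53 in the 3 windows of the left group and -0.15 to -0.02 in the 8 windows of the right group. Divided by quartile of abundance, by place in or between genes, by strand, by strand relative to the host, or by overlap with another piRNA locus, every subgroup of at least 10 loci had a median of 0.34 to 0.63 on the left and -0.19 to -0.03 on the right. The left sum over the 108 loci of the group with whole counts in every library changed by a ratio of 1.35.

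The other classes showed the same order. The median log2 fold change was 1.49 on the left and 1.16 on the right for spermatogenic loci, and 0.80 and 0.12 for unclassed loci. The log2 ratio of left to right sums differed between genotypes by 0.37 ± 0.054 for spermatogenic and 0.64 ± 0.091 for unclassed loci, so the difference of 0.51 at the oogenic loci lay between them and was not particular to this class.

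**Figure D3:**
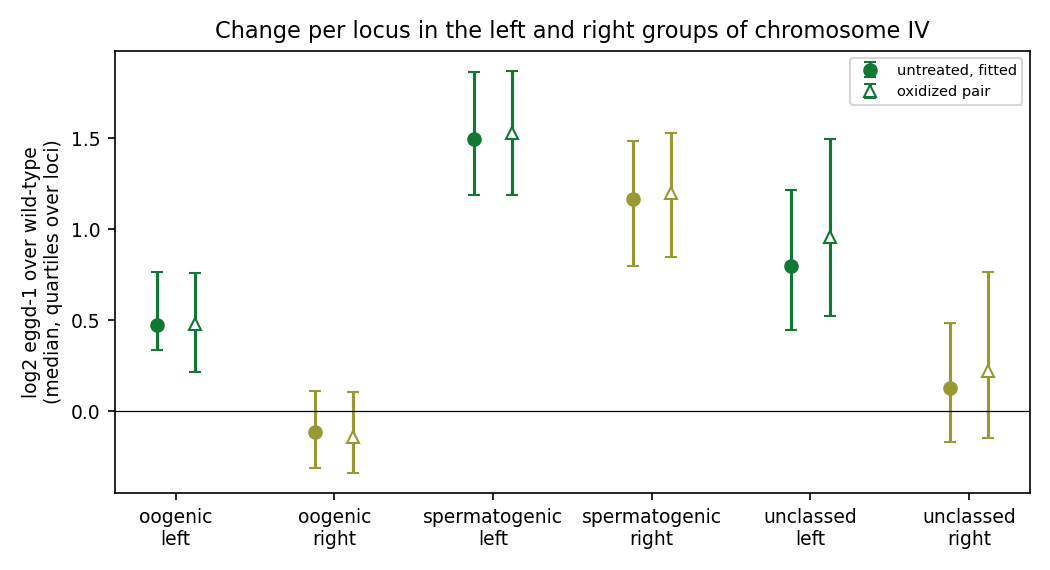
Log2 ratio of *eggd-1* to wild-type per locus (y axis), as the median with its quartiles over loci, for the left and right groups of chromosome IV in each class (x axis), with filled circles for the untreated libraries and open triangles for the periodate-treated pair. In each class the left group is higher, for oogenic loci at 0.47 against -0.12 untreated and at 0.48 against -0.14 after periodate.

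Sodium periodate enriched oogenic piRNAs in both genotypes. For members with at least 10 untreated reads in a genotype, the ratio of the periodate-treated to the mean untreated RPM had a median of 14.7 in wild-type (1416 loci, quartiles 11.7 and 18.4) and 14.3 in *eggd-1* (1361 loci, quartiles 11.6 and 18.1). The ratio was above 1 at each of these loci in both genotypes. Spermatogenic loci had medians of 14.0 and 14.3, and unclassed loci 13.7 and 13.8. The oogenic sum rose 14.9-fold in wild-type, and in *eggd-1* by a factor of 12.9. With 1 treated library per genotype there is no replicate check, and these ratios follow from the loss of other small RNAs as well: relative to piRNA counts alone the medians were 1.01 and 1.12.

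The ratio differed between loci in a way that the genotypes shared. Over the 1345 members with enough reads in both, the log2 ratios of wild-type and *eggd-1* had a Pearson r of 0.65 and a Spearman rho of 0.61, given as a description across loci, which are not independent and share libraries. The highest ratio at a mean of at least 50 counts was that of 21ur-3837, with 159 RPM in treated wild-type and 209 RPM in treated *eggd-1*, ratios of 100.1 and 63.6. 21ur-3647 (IV:15815227-15815247, plus strand, intergenic) had ratios of 43.9 and 34.2, and 21ur-722 (IV:14660204-14660224, minus strand), in an intron of the anoctamin gene *anoh-2*, had 41.8 and 25.3.

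The lowest ratios at this depth were still well above 1. 21ur-4927 (IV:15880204-15880224, plus strand), in an intron of the guanylyl cyclase gene *gcy-25*, had 4.84 in wild-type against 4.93 in *eggd-1*, from 5.18 and 6.46 RPM untreated to 28.2 RPM treated in wild-type. The neighbours 21ur-3560 (IV:15603049-15603069, plus strand) and 21ur-10039 (IV:15603048-15603068, plus strand) overlap in all but a base and had 5.32 and 5.35 in wild-type against 6.74 and 6.74 in *eggd-1*, so they count as a single observation.

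**Figure D4:**
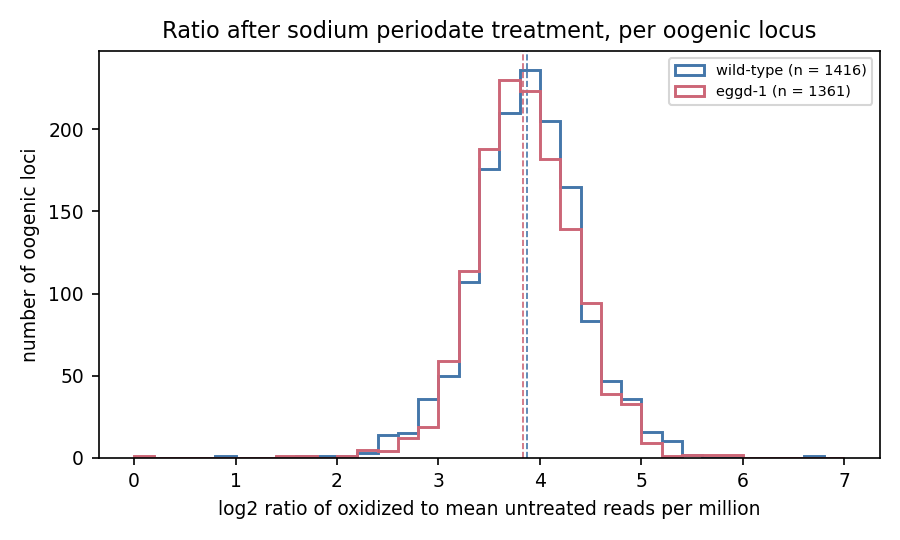
Number of oogenic loci (y axis) by log2 ratio of periodate-treated to mean untreated RPM (x axis) in wild-type and *eggd-1*, with dashed lines at the medians. The distributions lie over each other, with medians of 14.7 and 14.3 on the linear scale.

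Between the periodate-treated libraries, *eggd-1* had less oogenic piRNA than wild-type in RPM. All piRNAs together were at 861138 RPM in treated wild-type and 864314 RPM in treated *eggd-1*. RPM is thus close to a share of piRNA reads here, and a higher class leaves less for the others. The treated spermatogenic sum was 89064 RPM in wild-type against 164479 RPM in *eggd-1*. The oogenic sum was 297057 RPM in wild-type against 246640 RPM in *eggd-1*, a ratio of 0.830 with no replicates. Among 1604 members with a read in both libraries and at least 20 in all, 623 were higher and 981 lower in *eggd-1*, with a median log2 ratio of -0.11 (quartiles -0.33 and 0.17). The same median was 1.27 for spermatogenic and 0.35 for unclassed loci. At least 2-fold higher were 32 members and at least 2-fold lower 25.

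These libraries are other samples than the untreated ones. In wild-type the strain differs, so the RNA came from other animals. For *eggd-1* the labels do not say whether it came from another preparation. The changes per locus were set side by side. Over the 1253 tested members, the fitted log2 fold change of the untreated libraries and the log2 ratio of the treated pair had a Pearson r of 0.42 and a Spearman rho of 0.34, and 824 members (65.8%) had the same sign. Within the left group r was 0.49 (86 loci) and within the right group 0.27 (1167 loci). Of the 135 left members with enough treated reads 122 (90.4%) were higher in treated *eggd-1*, against 34.1% of 1469 in the right group. In the untreated libraries 76 of the 86 left and 413 of the 1167 right members were above 0. Most members of a group thus had the same direction in both pairs, which by itself raises the share of equal signs.

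**Figure D5:**
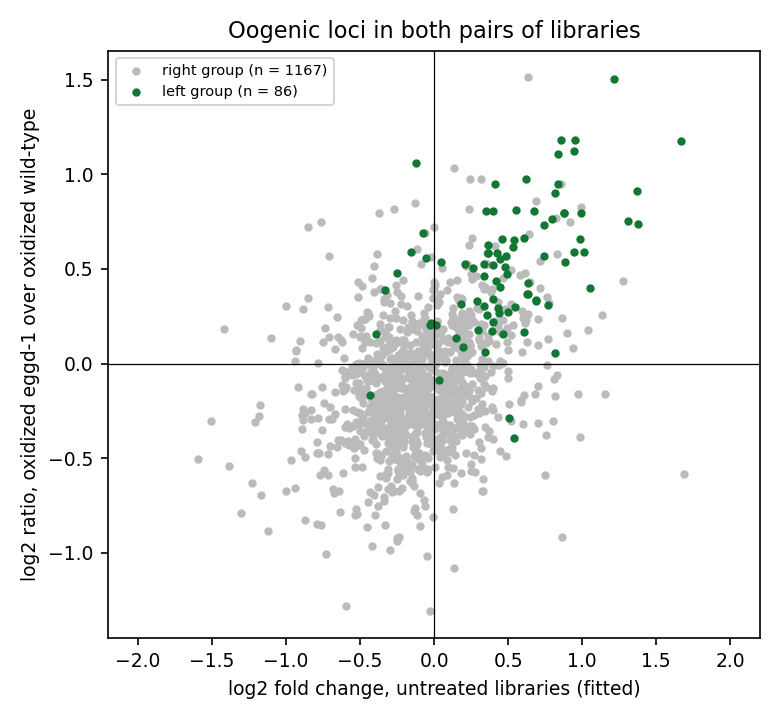
Log2 fold change of each tested oogenic locus in the untreated libraries (x axis) against its log2 ratio between the periodate-treated libraries (y axis), 1 point per locus, with left group loci in green and right group loci in grey. Most of the 86 left loci are in the upper right part of the plot, and the 1167 right loci are centred slightly under 0 on both axes.

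In RPM, the sums of other germ cell small RNAs examined did not overlap between genotypes, whereas the oogenic sum did. Relative to miRNA or piRNA counts the oogenic sum was lower in *eggd-1*, as given above. Summed 26G-RNAs of ALG-3/4 class genes, which are made during spermatogenesis, were at 324 and 351 RPM in wild-type against 1180 and 1048 RPM in *eggd-1*, with 1121 of 1325 genes higher and 12 lower without overlap, against 32.3% and 7.03% of all 26G-RNA genes with a read. miRNAs of the miR-35 to miR-42 family, abundant in oocytes and early embryos, were at 19343 and 16759 RPM in wild-type against 10642 and 10906 RPM in *eggd-1* (ratio 0.597 ± 0.061), with 15 of 16 mature entries lower without overlap, against 14.8% of all mature miRNA entries with a read. ERGO-1 class 26G-RNAs, made in oocytes and embryos, were at 316 and 299 RPM in wild-type against 204 and 215 RPM in *eggd-1*, with 28 of 59 genes lower and 8 higher without overlap and 2 at 0. No marker entry of the miR-35 family was at 0 in the untreated libraries.

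The oogenic piRNA sum was compared with the miR-35 family in each library. Its log2 ratio to the family's sum was 0.01 and 0.29 in wild-type against 0.78 and 0.87 in *eggd-1*, a difference of 0.68 ± 0.21 (SD, exact permutation p 0.33). The summed miRNAs of the somatic list (lin-4, let-7, miR-1, miR-58.1, miR-71 and miR-80) were at 33356 and 31846 RPM in wild-type against 38262 and 40246 RPM in *eggd-1*, with 8 of 10 entries higher without overlap, against 41.2% of all entries. The part of a changed makeup of the animals in the values of the oogenic loci was not tested.

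The genes that make and use piRNAs were examined as targets of 22G-RNAs, which lie antisense to transcripts and are not a measure of their level. Of a list of 36 genes, 32 were found by name and 31 were tested. At 3 of them 22G-RNAs were higher by at least 2-fold, and at 0 lower (edgeR, adjusted p below 0.05), where 9.30% of all 22G-RNA genes were called higher and 16.1% lower. DESeq2 also gave 0 lower, and edgeR gave 0 at an unadjusted p below 0.05 and 2-fold. The median log2 fold change of the list was 0.07, that of all tested genes -0.18.

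The 3 genes were *snpc-1.3*, *attf-6* and *glh-4*. *snpc-1.3* (V:5437084-5439168), whose product drives transcription of male piRNAs, had 22G-RNAs at 4.51 and 4.83 RPM in wild-type against 11.5 and 10.6 RPM in *eggd-1* (log2 fold change 1.24 ± 0.12). *attf-6* (I:12787943-12806581) was at 75.1 and 78.9 RPM in wild-type against 215 and 229 RPM in *eggd-1* (1.53 ± 0.072). *glh-4* (I:3727027-3731179), a Vasa-related helicase of P granules, was at 167 and 159 RPM in wild-type against 333 and 322 RPM in *eggd-1* (1.01 ± 0.070), just past the 2-fold line. At any fold 12 of the list were higher and 9 lower (21.7% and 40.8% of all genes).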

How the data were processed

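Small RNA libraries of adult worms were analysed, 2 untreated per genotype and 1 treated with sodium periodate per genotype. The authors trimmed the reads, removed those aligning to structural RNAs, and aligned the rest with Bowtie without mismatches. piRNA reads had to map uniquely, in sense, with a 5′ T at or near the annotated start. Each read was divided by its locations and overlapping features, so the deposited values are expected counts. The authors' RPM values are relative to genome-mapped reads, and read length cannot be examined from them.

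After rounding, differences were tested by the quasi-likelihood method of edgeR 4.0.16 in R 4.3.3 over all piRNA loci or all 22G-RNA genes, with genome-mapped reads as library size, the default filter at a minimum count of 10 and Benjamini-Hochberg adjustment. On simulated piRNA counts of 6468 loci, 189 of 200 loci changed 3-fold were recovered, with 2 unchanged loci called. The changed loci were drawn from better covered ones, equally in both directions, with a single dispersion for all loci. The simulation therefore does not cover a mostly one-sided change or the lowest counts. Sums, shares and log ratios were compared with two-sided exact permutation tests. Alternatives were TMM scaling, other library sizes, DESeq2 1.42.0, other filters and thresholds, a replicate block and leaving out each library.

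Named loci were the 10 most abundant, the called loci of largest change with at least 50 counts on average, those called under both scalings, and the 3 with the highest and the lowest periodate ratios. 21ur-1 is not a member. The members, lists and rules were chosen with earlier results of these data known, and the division of chromosome IV was chosen after seeing the values. Annotation was Ensembl 115.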

Additional observations from a re-analysis of the deposited data

Results flagged for a closer look

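In 4 of the named loci, both untreated *eggd-1* libraries lay on one side of both wild-type libraries while the periodate-treated pair went the other way. The difference between the pairs was not tested, the control strain differs between them, and the treated pair has no replicates. For 21ur-917 the log2 ratio of *eggd-1* to wild-type was 0.48 untreated and -0.49 treated. For 21ur-331 it was 0.50 untreated and -0.29 treated. For 21ur-2923, called on the strength of *eggd-1* replicate 1, it was 1.72 untreated and -0.58 treated. For 21ur-4058, called lower, it was -1.42 untreated and 0.19 treated.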

How the results depend on the processing

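The number of calls depended on the scaling, the test, the depth and single libraries. Against 11 members called higher and 10 lower, there were 2 and 77 with TMM scaling, 1 and 51 with DESeq2's own size factors, 5 and 3 with DESeq2 at genome-mapped size factors, 3 and 1 at a mean of at least 50 counts, and 57 and 64 with no fold threshold. With the 2-fold threshold inside the test there were 0 and 0, and 3 and 3 at an unadjusted p below 0.05 in edgeR. Leaving out 1 library, where the lone sample is assumed to vary like the other genotype, gave 12 to 24 higher and 8 to 26 lower. The median log2 fold change of -0.09 was -0.48 with TMM, -0.51 with DESeq2's own size factors and -0.18 relative to miRNA counts. It stayed at -0.09 with DESeq2 at genome-mapped size factors, and was -0.14 to -0.017 with a library left out. The ratio of the medians over members, 0.979, ran from 0.907 to 1.05 with a library left out. It turned above 1 without wild-type replicate 2 (1.02) or *eggd-1* replicate 2 (1.05). Relative to miRNA counts it was 0.922, and relative to piRNA counts 0.862. On the same 2 scales the ratio of the oogenic sums, 0.958 in RPM, was 0.905 and 0.841. The median periodate ratios of 14.7 and 14.3 became 10.4 and 10.1 relative to all small RNA counts, and 1.01 and 1.12 relative to piRNA counts. The *eggd-1* ratio was 13.8 at a mean of at least 50 counts. With a library left out they were 14.1 to 15.5 in wild-type and 14.3 to 14.7 in *eggd-1*. The ratio of 0.830 between the treated sums was 0.853 without the 10 most abundant members. In the left group, added after seeing the data, the 32 higher loci at any fold became 6 with TMM, 2 with DESeq2 and 18 to 33 with a library left out. The cause of these shifts was not tested. The share, the ratios between classes and the ratio of left to right sums kept their direction in each of their alternatives.

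The labels give same-numbered replicates nothing in common but the number. Their deviations, in 2 pairs, correlated at 0.045 over 1253 members, which cannot settle whether they share a batch. A replicate block gave 12 higher and 9 lower calls and 37 higher in the left group, and left the sum at 0.958. The planned search for promoter motifs was not run. Oxidized libraries have no replicates, and the 471 untested members are limited by depth.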
